A study of Mus musculus with 6 samples.

Results

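Ifi27l2a is 1 of the 23016 genes in a table of transcript counts from single leukocytes of young and aged wild-type mice, and its level was followed across blood and bone marrow cell lineages. The table held 61250 Ifi27l2a molecules, in 7653 of the 26893 cells kept. The gene was chosen by measured values, since it had stood out between young and aged mice in these same libraries. Its levels and ratios are therefore a description, with intervals of counting error and no test.

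Ifi27l2a belongs to the family of small hydrophobic Ifi27 proteins, which have been placed in mitochondrial and other membranes of the cell. It is an interferon-stimulated gene: type I interferon binds the Ifnar1 and Ifnar2 receptor, the kinases Jak1 and Tyk2 are switched on, and transcription factors then enter the nucleus with Irf9 and turn on a set of antiviral genes. In blood and marrow such genes are read at a low level without infection, and they are strongly induced in myeloid cells by viruses and nucleic acid sensing.

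The study held 6 libraries of mouse cells, 1 per group. The groups were young and aged marrow at steady state, young and aged marrow taken 24 h after the middle cerebral artery had been blocked (middle cerebral artery occlusion, a model of stroke), and blood of young and of aged mice without stroke. All mice were wild type. Marrow had been enriched by sorting for Gr1+ and c-kit+ cells, that is granulocytes, monocytes and progenitors, and blood had been sorted into CD11b+ Ly6G+ and CD11b+ Ly6G- cells. The sources used here do not state the ages, the number of mice behind each library or any pooling of mice. Each library is therefore a single sample of its group, and the spread between mice is unknown. Cells of 1 library share its handling and its free RNA, so the lineages of a library are not independent of each other.

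In the GENCODE annotation of the mouse genome build GRCm38, Ifi27l2a is a protein-coding gene of 4 exons on the minus strand of chromosome 12, at chr12:103442167-103443680. Ifi27 lies 1927 bases away on the plus strand, and Ifi27l2b lies 7217 bases away on the minus strand. RefSeq draws Ifi27l2a longer, from 103433873 to 103443680, so that it overlaps Ifi27 by 6057 bases on the opposite strand. The sources used here do not say whether reads were counted by strand, so reads from that overlap cannot be told apart. Of the 31-base words in the last 400 bases of the GENCODE transcript, the end that these libraries sample, 26 of 370 (7.03%) also occur in another gene, Ifi27l2b. Ifi27l2b was not analysed here. The longest stretch the pair shares lies in the coding sequence of exon 3, at chr12:103442872-103442922, 257 bases from the transcript's end. It is printed because reads inside it could come from either gene, with the 51 shared bases in capitals and 12 bases on each side in lower case.
Ifi27l2a: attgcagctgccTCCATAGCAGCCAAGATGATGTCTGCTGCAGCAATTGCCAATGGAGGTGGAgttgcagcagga
Ifi27l2b: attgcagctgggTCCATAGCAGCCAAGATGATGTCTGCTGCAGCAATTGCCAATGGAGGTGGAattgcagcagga
Both sequences run 5′ to 3′ along the transcript, as GENCODE gives it. The sources used here do not say how reads that match more than 1 gene were assigned, so the values of Ifi27l2a carry that uncertainty.

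No cell type labels came with the counts. Cells were assigned to 16 lineages by lists of marker genes that hold no interferon-stimulated gene, which left 23636 cells in a lineage, 1398 that passed the gates of unrelated lineages (called mixed and set aside) and 1859 in none. The gates of mature neutrophils and classical monocytes were clean by this measure: the median share of any other list stayed below 0.33 of that list's own threshold. Conventional dendritic cells, non-classical monocytes and macrophages carried the monocyte markers at 1.53 to 1.91 times their threshold, and B-lineage cells carried the dendritic list, which holds the class II genes, at 3.53 times. Those lineages are ranges of marker level rather than pure types. The blood libraries held no gated stem cell, azurophil-granule progenitor or immature neutrophil. Libraries held between 10208699 and 72743805 UMIs (unique molecular identifiers, each a counted transcript), 104 cell barcodes occurred in more than 1 library, and the highest mitochondrial share was 9.95% in the post-stroke marrow libraries against 4.99% in the others. In the young post-stroke marrow the azurophil progenitor gate held 231 cells with a median of 1279 UMIs, against 7981 in that library as a whole.

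Ifi27l2a was highest in classical monocytes, the circulating precursors of macrophages, and in dendritic cells, and lower in mature neutrophils. It was lowest in progenitors, immature neutrophils, erythroid cells, megakaryocytes, basophils and natural killer (NK) cells. Levels are given as CPM, the gene's UMIs per 1000000 UMIs summed over the cells of a lineage in a library. In classical monocytes the level was 343 CPM in young and 229 CPM in aged steady marrow, 237 and 122 CPM in young and aged marrow after stroke, and 2691 and 1576 CPM in young and aged blood. All 6 counting intervals stood apart from each other except those of aged steady marrow (220 to 239 CPM) and young post-stroke marrow (228 to 247 CPM). Monocytes had the highest level in either blood library, and no sum of cells in marrow reached the level of any myeloid lineage in young blood.

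**Figure D1:**
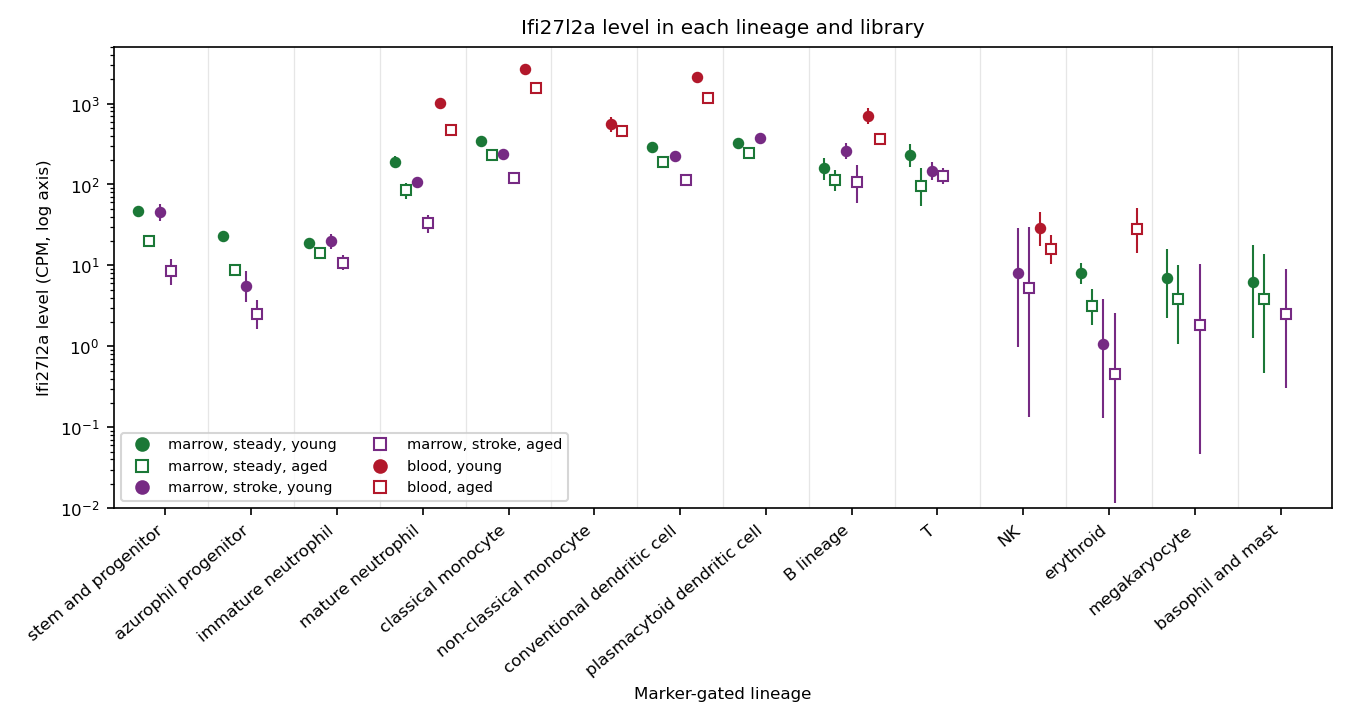
Ifi27l2a level (CPM, log axis) in each marker-gated lineage (x axis), 1 point per library with at least 20 cells of the lineage, with bars for the 95% exact Poisson interval of counting error. Filled circles are young libraries and open squares aged ones. Blood classical monocytes at 2691 and 1576 CPM stand at the top, and erythroid cells of marrow at 0.46 to 8.04 CPM at the bottom.

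Mature neutrophils, the short-lived granulocytes that fill the blood, followed the monocytes at a distance. Their level was 192 and 84.3 CPM in young and aged steady marrow, 108 and 33.0 CPM in young and aged marrow after stroke, and 1015 and 474 CPM in young and aged blood. Within a library, monocytes exceeded mature neutrophils by 1.78 (95% counting interval 1.54 to 2.08) to 3.70 times (2.88 to 4.83), and the interval lay above 1 in all 6 libraries. Immature neutrophils, which still make secondary granule proteins such as Camp and Ltf, stood lower again, at 19.0, 14.2, 19.9 and 10.8 CPM in young and aged steady and young and aged post-stroke marrow. Mature cells exceeded them 10.1, 5.95, 5.42 and 3.04 times in that order, so the gap between the neutrophil stages was widest in young steady marrow.

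Progenitors held little of the transcript. Stem and progenitor cells were at 47.1 and 20.2 CPM in young and aged steady marrow and at 45.5 and 8.52 CPM after stroke. Azurophil progenitors, which make the primary granule enzymes Mpo and Elane, were at 23.3 and 8.81 CPM at steady state and at 5.63 and 2.52 CPM after stroke. Stem and progenitor cells exceeded azurophil progenitors in each marrow library, by 2.02 and 2.29 times in young and aged steady marrow and 3.38 times in aged post-stroke marrow. In young post-stroke marrow the fold was 8.08, and it rests on the shallow azurophil gate described above, where the shares of cells with a UMI after thinning to 1000 UMIs were 4.21% and 1.58%.

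Plasmacytoid dendritic cells, the specialised makers of type I interferon, stood level with monocytes in marrow. They held 323 and 243 CPM in young and aged steady marrow, where the ratio to monocytes had intervals spanning 1, and 371 CPM in young post-stroke marrow, where monocytes were at 0.639 of their level (0.555 to 0.738). The aged post-stroke library had 15 such cells, too few for a level. Conventional dendritic cells, which present antigen, held 295, 188, 223 and 113 CPM in the 4 marrow libraries (young and aged steady, then young and aged post-stroke) and 2155 and 1172 CPM in young and aged blood. Monocyte markers were detected in all of these sums (10 of 10 in each, at 2082 to 4271 CPM together), and their part in the dendritic level was not tested. Non-classical monocytes, the patrolling form, were at 558 and 460 CPM in young and aged blood, below the classical cells of the same library.

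Lymphocytes were divided. B-lineage cells held 159, 113, 260 and 107 CPM in marrow and 707 and 364 CPM in blood, and T cells held 231, 96.2, 149 and 128 CPM in marrow. The aged T cell levels rest on few cells. In aged steady marrow, 15 UMIs lay in 3 of 37 T cells. In aged post-stroke marrow, 73 UMIs lay in 17 of 110, with 28 in the richest cell. NK cells held less, at 8.06 and 5.33 CPM in young and aged post-stroke marrow (2 and 1 UMIs) and 29.0 and 16.1 CPM in young and aged blood. In blood, classical monocytes were at 92.9 times (58.7 to 157) and 98.0 times (66.4 to 151) the NK level. Erythroid cells of marrow were at 8.04, 3.18, 1.07 and 0.46 CPM, basophils and mast cells at 6.19, 3.88 and 2.51 CPM in the 3 marrow libraries with at least 20 of them, and megakaryocytes at 6.91, 3.90 and 1.85 CPM, each of the last 2 lineages from 5 UMIs or fewer. With lineages ranked by level within each library, 25 of 54 neighbouring pairs differed beyond counting error. Among the pairs that did not were monocytes and plasmacytoid cells at steady state, and T cells, monocytes, conventional dendritic cells and B cells in aged post-stroke marrow.

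The share of cells with at least 1 Ifi27l2a UMI was higher in classical monocytes than in mature neutrophils in each library. It did not rank all lineages as CPM did. T cells of aged post-stroke marrow stood first by CPM. Their share was 15.5%, against 35.9% in conventional dendritic and 34.8% in B-lineage cells of that library. In T cells of young post-stroke marrow the share was 43.8% (31.4 to 56.7%), against 15.5% (9.27 to 23.6%) in the aged library. After thinning to 1000 UMIs these T cell shares were 13.6% and 6.59%. The CPM ratio of that pair, at -0.21 on the log2 scale, had an interval spanning 0. Among classical monocytes the share was 52.1% and 48.0% in young and aged steady marrow, 55.8% and 48.9% in post-stroke marrow, and 86.2% and 82.9% in blood. Among mature neutrophils it was 32.7% and 20.8%, 19.0% and 9.40%, and 45.1% and 31.9%. NK cells of young and aged blood had shares of 13.8% (exact interval 7.91 to 21.7%) and 8.30% (5.28 to 12.3%). Their median depths were 5499 and 5588 UMIs per cell, against 3943 and 4032 in the mature neutrophils. The 44 erythroid cells of aged blood, with a median depth of 9122 UMIs, had a share of 22.7% (11.5 to 37.8%). No background level was measured, so none of these shares is read as one. Post-stroke NK cells of young and aged marrow had shares of 3.39% (0.413 to 11.7%) and 1.89% (0.0478 to 10.1%), from 2 and 1 cells. The immature neutrophil shares of 11.4% and 6.93% in the same libraries lay within those intervals. These neutrophils were deeper, with medians of 16443 and 15914 UMIs against 4202 and 3451 in the NK cells, so the shares are not at equal depth.

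Depth moved these shares, so each cell was also thinned to 1000 UMIs, with shallower cells left out (0 to 54 cells of these lineages per library). The thinned share of monocytes was 24.7% and 19.6% in young and aged steady marrow, 21.5% and 14.2% in post-stroke marrow, and 73.3% and 56.3% in blood. That of mature neutrophils was 13.3% and 6.60%, 8.04% and 2.86%, and 31.03% and 18.7%. At equal depth the aged share was below the young one in both lineages and all 3 settings. Blood NK cells were at 3.22% and 1.48% on the same scale.

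**Figure D2:**
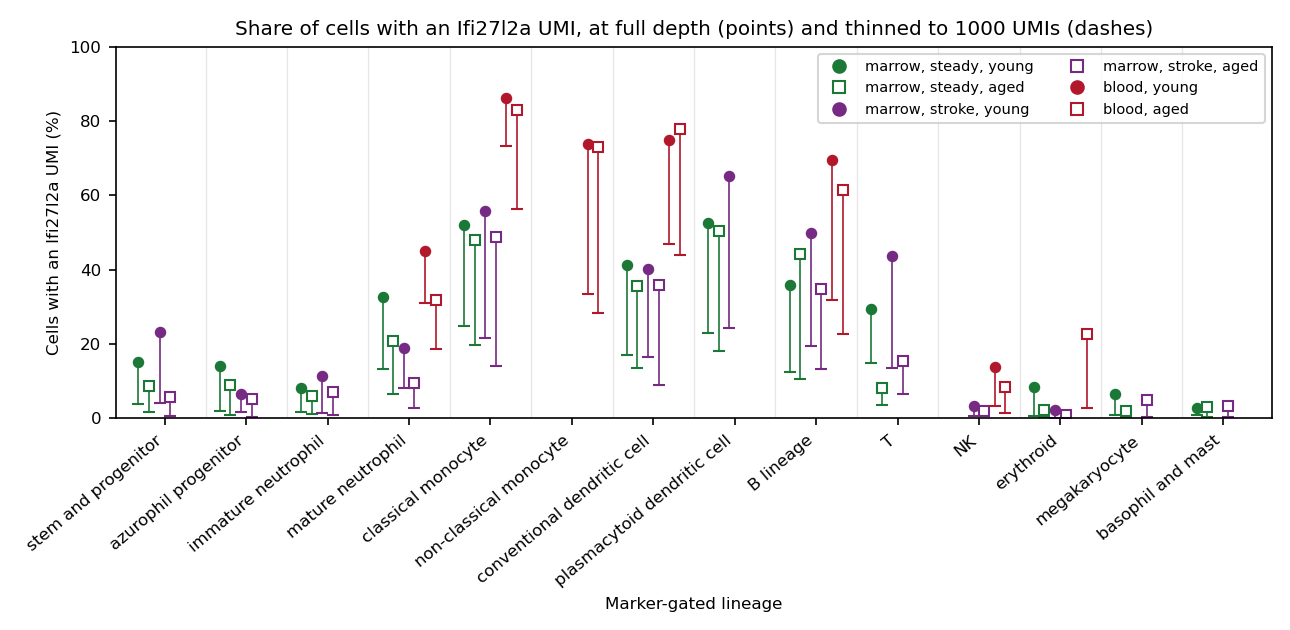
Percentage of cells with an Ifi27l2a UMI (y axis) in each marker-gated lineage (x axis) and library; points give the share at full depth and dashes the share expected after thinning each cell to 1000 UMIs. Filled circles are young and open squares aged libraries. Classical monocytes of blood reach 86.2% and 82.9% at full depth and 73.3% and 56.3% after thinning.

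Ifi27l2a was lower in the aged than in the young library in each of the 24 pairs that could be compared, over 12 lineages. The counting interval lay below 0 on the log2 scale in 20 of them and spanned 0 in 4, which were non-classical monocytes and NK cells in blood, B cells in steady marrow and T cells after stroke. In mature neutrophils the log2 ratio of aged to young was -1.19 (-1.59 to -0.80) in steady marrow, -1.71 (-2.14 to -1.30) after stroke and -1.10 (-1.15 to -1.05) in blood. In classical monocytes it was -0.58 (-0.65 to -0.50), -0.96 (-1.07 to -0.85) and -0.77 (-0.82 to -0.73). The mature neutrophil ratio was the more negative of the pair in each setting, and the counting intervals of the lineages did not overlap in any of the 3. These intervals treat UMIs as independent and leave out the spread between cells. In steady marrow 8 young and 5 aged mature neutrophils held 50% of the lineage's UMIs. No difference between the lineages is therefore read from the gap between the intervals.

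**Figure D3:**
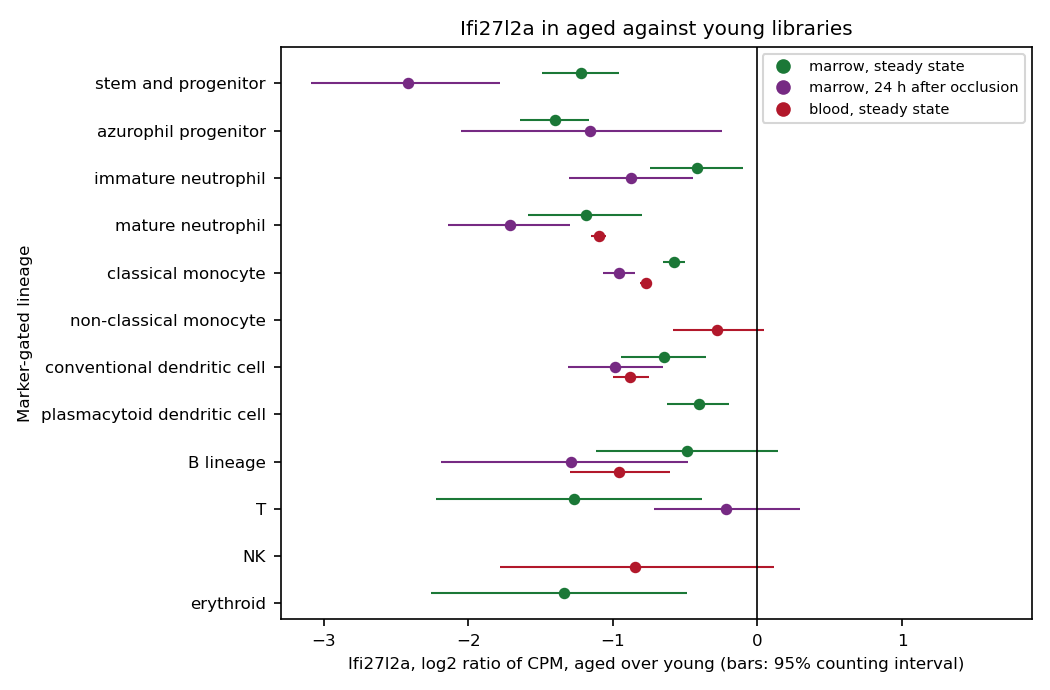
Log2 ratio of the Ifi27l2a level, aged over young (x axis), by marker-gated lineage (y axis), with bars for the 95% counting interval and colour for the setting. The vertical line marks equal levels, and all 24 points lie to its left, from -0.21 in T cells after stroke to -2.42 in stem and progenitor cells after stroke.

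Dendritic cells and progenitors of the aged libraries were lower as well. Conventional dendritic cells were at -0.65, -0.98 and -0.88 in steady marrow, post-stroke marrow and blood, the last turning to 0.75 without the 10 richest cells of each library, which removed 10 of 32 young cells. Plasmacytoid cells were at -0.41 (-0.62 to -0.19) in steady marrow. Stem and progenitor cells were at -1.22 (-1.49 to -0.96) at steady state and at -2.42 (-3.09 to -1.78) after stroke, from 30 UMIs in the aged library. Markers of lineages with more Ifi27l2a were lower in the same gate: the summed plasmacytoid list was at 485 and 387 CPM in young and aged steady marrow and at 338 and 189 CPM after stroke, and the monocyte list at 211 and 184 CPM and at 102 and 54.5 CPM. Their part in the stem and progenitor ratios was not tested. Immature neutrophils had the smaller ratios of the neutrophil stages, at -0.42 (-0.74 to -0.10) and -0.88 (-1.30 to -0.45). After stroke the monocyte list stood at 132 and 98.4 CPM, in young and aged cells, in immature neutrophils, and at 806 and 605 CPM in azurophil progenitors; its part was not tested. Scaling by edgeR's trimmed mean of M-values (TMM, which aligns the bulk of genes between sums) left all 24 pairs lower and 20 intervals below 0, and shifted no ratio by more than 0.31.

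Monocyte markers in the mature neutrophil gate differed between the ages in both directions. All 10 were detected in each library, and summed over the list they stood at 322 and 514 CPM in young and aged steady marrow, 180 and 88.4 CPM after stroke, and 728 and 893 CPM in blood. Their log2 ratio of aged to young was thus 0.67, -1.02 and 0.30, higher in aged cells in the 2 settings at steady state and lower after stroke. Their part in the mature neutrophil ratios of Ifi27l2a was not tested. Where cells were split by the share of their own lineage markers, the aged level was below the young one in 39 of 43 ranges, with 32 intervals below 0 and none above. Among blood monocytes richest in their own markers (at least 4 times the gate's threshold) it was 3124 CPM in young and 1945 CPM in aged cells, and among mature neutrophils of blood in that range 710 and 404 CPM. In progenitors that range showed no age difference beyond counting error at steady state: stem and progenitor cells were at 16.6 and 15.9 CPM (log2 ratio -0.07, -1.57 to 1.54) and azurophil progenitors at 8.64 and 7.93 CPM (-0.12, -0.62 to 0.37). Azurophil progenitors of steady marrow near the threshold (1 to 2 times) were at 69.1 and 15.9 CPM, and those at 2 to 4 times at 21.05 and 7.35 CPM. In that gate at steady state, the age difference thus lay in the cells with fewer of their own markers. The 10 azurophil progenitors of young steady marrow richest in Ifi27l2a had monocyte markers at 22.4 per 10000 UMIs, against 6.11 in the rest. In aged steady marrow these were at 20.3 against 7.15. The threshold of the monocyte gate is 20. Own markers were at 138 against 281 in young and 287 against 279 in aged cells. Summed over the gate, the monocyte list stood at 1128 and 1108 CPM in young and aged cells. Its part in the age difference was not tested. After stroke the Ifi27l2a log2 ratio of azurophil progenitors was -0.41 (-1.54 to 0.80) at 1 to 2 times their threshold. At 2 to 4 times it was -2.34 (-4.26 to -0.61), from 9 and 5 UMIs in young and aged cells. Immature neutrophils in the top range were at 12.5 and 10.1 CPM at steady state (-0.32, -0.77 to 0.13) and at 5.26 and 5.64 CPM after stroke (0.10, -0.86 to 1.12).

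After stroke, Ifi27l2a in marrow was lower than at steady state in most lineages by CPM, and much of that depended on the scale. Of 19 pairs, 15 were below 0, with the interval below 0 in 12 and above 0 in 1, young B cells at 0.71 (0.15 to 1.28). In young and aged mature neutrophils the log2 ratio of stroke to steady state was -0.83 (-1.14 to -0.53) and -1.36 (-1.85 to -0.86) by CPM, and -0.07 (-0.38 to 0.23) and -0.47 (-0.97 to 0.02) with TMM. In young and aged classical monocytes it was -0.53 (-0.61 to -0.46) and -0.91 (-1.02 to -0.80) by CPM, and -0.10 (-0.18 to -0.03) and -0.55 (-0.66 to -0.44) with TMM. TMM raised the 19 ratios by 0.06 to 0.88, after which 14 were below 0, with the interval below 0 in 7 and above 0 in 3. The mature neutrophil difference was therefore not separable from the scaling, while the aged monocytes stayed lower on both scales. Post-stroke cells were also deeper, with a median of 18725 UMIs in young monocytes against 7291 at steady state, and the part of depth in these ratios was not tested. Young azurophil progenitors, the gate with shallow cells, stood at -2.05 by CPM, at 0.16 without cells above 3 times the median UMI count and at 0.32 as a mean over cells, so no direction is given for them.

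Blood cells held more Ifi27l2a than marrow cells of the same gate in all 9 pairs. The steady-state fold of blood over marrow was 7.85 and 6.87 in young and aged classical monocytes, 5.29 and 5.62 in young and aged mature neutrophils, and 7.31 and 6.23 in young and aged conventional dendritic cells. B cells differed by 4.43 and 3.21 times. Blood and marrow were sorted on different surface markers, so tissue and sort cannot be told apart in these folds.

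A few cells carried much of the transcript. In each library 2.22 to 5.97% of the cells kept held 50% of its Ifi27l2a UMIs, from 59 cells in aged post-stroke marrow to 319 in aged blood. Monocytes made up most of the 100 richest cells in every library, from 57 of 100 in aged post-stroke marrow to 80 of 100 in aged blood. Mixed cells, set aside from the lineages, supplied 17 and 24 of the 100 in young and aged steady marrow, and 18.6% and 18.9% of those libraries' Ifi27l2a UMIs. The single richest cell was a monocyte of young blood with 161 UMIs.

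The part of the transcript held by the richest cells is given by lineage as a description. It moves with the number of cells and with the mean UMIs per cell, which both differ between the gates, so it does not rank the lineages by unevenness. The 10 richest classical monocytes held 7.70% and 10.6% of the lineage's UMIs in young and aged steady marrow, 19.7% and 24.3% in post-stroke marrow, and 21.9% and 5.49% in blood, where the young library had 159 monocytes and the aged one 955. The 10 richest mature neutrophils held 56.8% and 71.8% in steady marrow and 62.3% and 77.3% after stroke, but 10.1% and 7.30% in blood, where the lineage had 1586 and 3243 cells against 125 to 242 in marrow. Scaled to the number of cells, 50% of the UMIs lay in 8.57 to 9.33% of marrow monocytes and in 17.1 to 20.8% of blood monocytes, against 1.71 to 4.85% of marrow and 4.69 to 6.49% of blood mature neutrophils. In immature neutrophils that share was 0.832 to 1.9%, and a single cell with 24 UMIs held 17.8% of the 135 UMIs in aged steady marrow. The variance of UMIs per cell over their mean gave another order: it was 8.59, 7.37, 16.3, 8.81, 30.1 and 22.2 in monocytes (young and aged steady marrow, post-stroke marrow and blood) and 8.83, 5.19, 9.05, 7.48, 19.3 and 13.8 in mature neutrophils, higher in the monocytes of 5 of the 6 libraries.

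**Figure D4:**
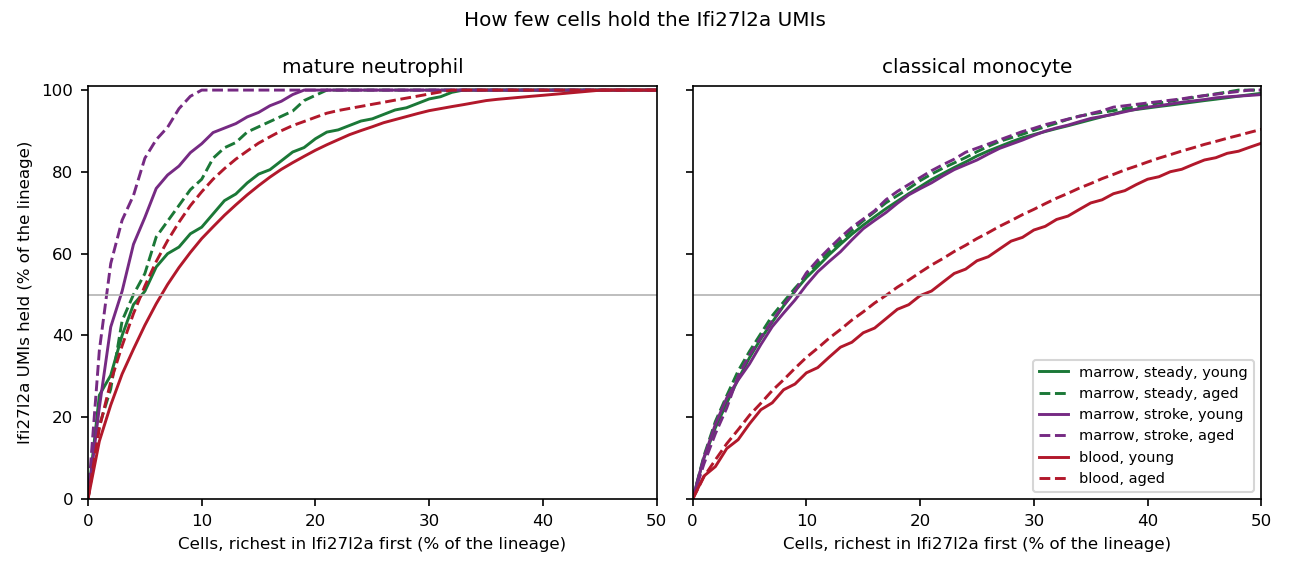
Cumulative percentage of a lineage's Ifi27l2a UMIs (y axis) against the percentage of its cells taken from the richest downwards (x axis, drawn to 50%), 1 line per library, solid for young and dashed for aged. The grey line marks 50% of the UMIs, which the mature neutrophils of aged post-stroke marrow reach at 1.71% of cells and the monocytes of young blood at 20.8%.

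Many cells of each lineage had none of it. In young and aged blood, 57.9% and 37.7% of monocytes held 20 or more Ifi27l2a UMIs and 13.8% and 17.1% held 0, with medians of 25 and 12 per cell. Blood mature neutrophils had a median of 0, with 54.9% and 68.1% at 0, while the 6.37% and 1.91% of cells with 20 or more UMIs held 49.6% and 27.8% of the lineage's total. Among marrow monocytes, 44.2 to 52.0% had 0.

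Other interferon-stimulated genes were spread over smaller and larger shares of the same cells than Ifi27l2a, and they too differ in mean UMIs per cell. In young blood mature neutrophils 50% of the UMIs lay in 6.49% of cells for Ifi27l2a and in 6.05% for Isg15, a ubiquitin-like modifier. The share was 0.820% for Ifit3, 11.5% for Oasl2 and 18.3% for the membrane protein Ifitm3. The 10 mature neutrophils of young blood richest in Ifi27l2a had a median of 38.9 UMIs of 16 other interferon-stimulated genes per 10000 UMIs, against 12.2 in the rest of the lineage, and in aged blood 23.1 against 7.46. Their monocyte markers were at 7.76 against 5.97 per 10000 in young blood and at 12.8 against 7.97 in aged blood, below the gate threshold of 20. In young and aged blood 3 and 5 of the 10 reached 50% of that threshold, beside 27.0% and 37.1% of the rest of the lineage. In steady marrow 1 and 3 of the 10 did, beside 8.39% and 16.5% of the rest.

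In monocytes and mature neutrophils Ifi27l2a was higher in cells with more of the other interferon-stimulated genes, and within each range of them that could be compared in these lineages the aged level was lower. Cells were put in 3 ranges by the UMIs of those 16 genes per 10000 UMIs (below 5, 5 to 20 and at least 20), with Ifi27l2a left out. Mature neutrophils of young blood held 487, 754 and 1736 CPM in the low, middle and high range, and those of aged blood 219, 470 and 1041 CPM. In the high range stood 31.9% of the young and 15.5% of the aged blood neutrophils. Monocytes of young blood held 1639, 2950 and 3154 CPM, and those of aged blood 963, 1911 and 2922 CPM, so the ages came closest in the high range (log2 ratio -0.11, -0.20 to -0.02).

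In marrow monocytes the step lay between the lowest ranges. Monocytes of young steady marrow held 243 CPM in the low range, 1252 CPM in the middle and 1857 CPM in the high range, and aged ones 160, 986 and 1308 CPM. Their median depth was 7793, 4189 and 4030 UMIs in the young library from the low to the high range, so the ranges also differ in depth, whose part was not tested. Over all lineages and settings, aged cells were below young ones in 32 of 33 ranges that could be compared, with 28 intervals below 0 and none above. The exception was stem and progenitor cells of steady marrow in the middle range, at 41.9 CPM in young and 61.5 CPM in aged cells (0.55, -0.24 to 1.38). In the young library these cells did not rise with the other genes, from 47.7 CPM in the low range to 41.9 CPM in the middle one, nor did immature neutrophils of aged steady marrow, at 14.5 and 6.97 CPM, the latter from 3 UMIs.

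**Figure D5:**
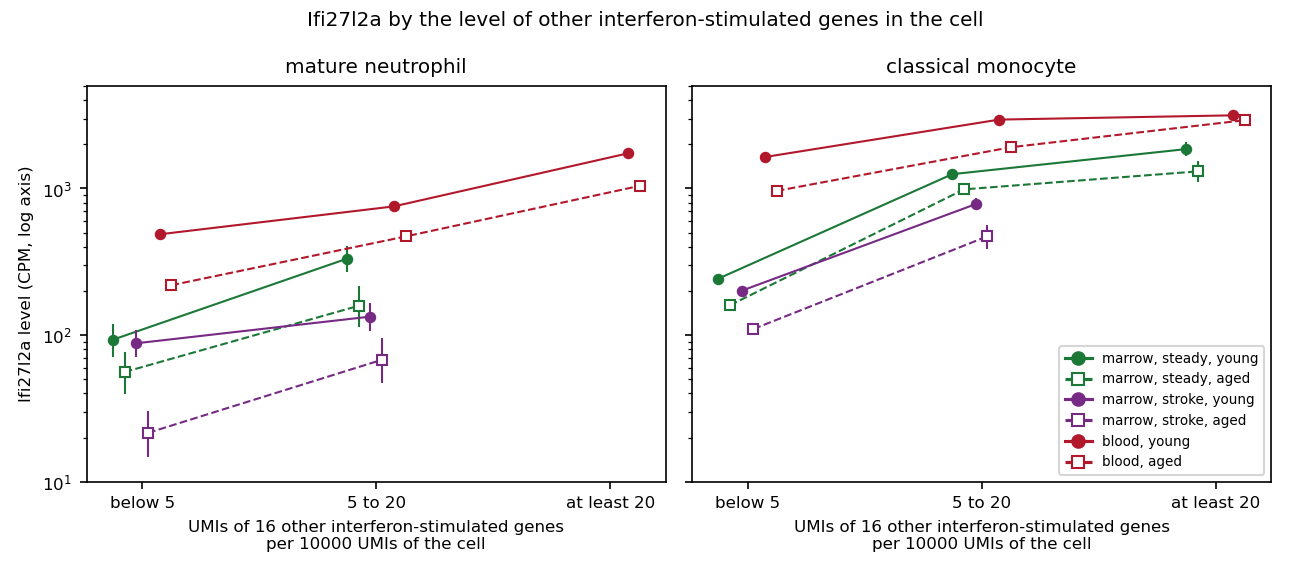
Ifi27l2a level (CPM, log axis) in mature neutrophils (left) and classical monocytes (right) by the UMIs of 16 other interferon-stimulated genes per 10000 UMIs of the cell (x axis, 3 ranges), with 95% Poisson intervals; ranges with under 20 cells are not drawn. Each line rises from left to right, from 487 to 1736 CPM in young blood neutrophils and from 1639 to 3154 CPM in young blood monocytes.

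The lineages did not rank alike on Ifi27l2a and on those other genes. Mature neutrophils of young blood had 2106 CPM summed over the 16 genes against 1425 CPM in the monocytes of the same library, while their Ifi27l2a was at 1015 against 2691 CPM. Plasmacytoid cells of young steady marrow had 112 CPM of the 16 genes, under the 143 CPM of immature neutrophils, with Ifi27l2a at 323 against 19.0 CPM. Of those plasmacytoid cells, 95.2% lay in the lowest range. For 2 abundant interferon-stimulated genes, chosen after their values were seen, monocytes and plasmacytoid cells of young steady marrow stood in opposite orders. Ifitm3, which blocks virus entry, was at 1268 CPM in the monocytes and 58.1 CPM in the plasmacytoid cells. Bst2, the tether that holds budding virions, was at 378 and 1876 CPM. Ifi27l2a was at 343 and 323 CPM in that pair.

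Other genes of the interferon pathway were read by role, with a gene counted when its level differed at least 2-fold between aged and young, among genes with a mean of at least 20 CPM over the pair of libraries. Of receptor genes (Ifnar1, Ifnar2, Ifngr1, Ifngr2), all 4 were measured at that level in mature neutrophils and in monocytes in the 3 settings, and none was 2-fold apart, where 0.0321 to 2.37% of all genes in these 6 comparisons were 2-fold lower and 0.0321 to 1.2% higher. In mature neutrophils of the 6 libraries Ifnar1 lay at 20.5 to 68.6 CPM and Ifnar2 at 53.5 to 99.2 CPM. Among sensors and interferon regulatory factors, 2 to 12 of 13 were measured in the same comparisons, and 1 of the 7 measured in blood mature neutrophils was lower, where 0.915% of all genes were: the nucleic acid sensor Zbp1, at 31.6 and 11.5 CPM in young and aged cells (-1.46, -1.77 to -1.15).

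Target genes were counted by the same rule, and the counts depend on how many genes reach 20 CPM. Of 51 interferon-stimulated genes other than Ifi27l2a, 11 of the 31 measured in blood mature neutrophils were at least 2-fold lower in the aged library and none higher, where 0.915% of 4371 genes were lower and 0.595% higher. In blood monocytes 6 of 41 were lower and none higher, against 1.16% and 0.743% of 5519 genes. Among the lower ones were the oligoadenylate synthase Oas2 in neutrophils (55.8 to 15.4 CPM, young to aged), Ifit1 (67.3 to 22.4 CPM) and Ifit3b (51.04 to 14.9 CPM), and in monocytes Ifi213 (42.2 to 15.2 CPM), the guanylate-binding protein Gbp2 (73.6 to 32.1 CPM) and Oas3 (77.7 to 35.8 CPM). The list's median log2 ratio was -0.72 in blood neutrophils and -0.54 in blood monocytes, with all genes at 0.00 and 0.03. Ifi27l2a at -1.10 and -0.77 was passed by 10 and 12 of those genes, so in these blood lineages it lay within the list. Without the 20 CPM minimum, 11, 17 and 17 genes of the list were 2-fold lower in mature neutrophils of steady marrow, post-stroke marrow and blood. The share of all genes past 2-fold without that minimum is not given. Those counts therefore show how the rule moves the number, and nothing about the list.

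In mature neutrophils and monocytes of marrow few of the measured genes of the list passed, and Ifi27l2a lay at or beyond its edge. In mature neutrophils 1 of 22 was 2-fold lower at steady state (Isg15, from 34 UMIs in young and 14 in aged cells), where 0.899% of 5006 genes were lower and 1.2% higher, and 3 of 12 after stroke, against 2.37% and 0.686% of 3496 genes. The 3 were Ly6e (223 to 89.9 CPM, young to aged), Oasl2 (28.9 to 12.99 CPM) and Trim30d (47.2 to 23.5 CPM). In marrow monocytes 0 of 23 passed at steady state, where 0.0321% of 6223 genes were lower and 0.0321% higher, and 0 of 13 after stroke, against 0.154% and 0.404% of 5201 genes. The list's median was -0.15 and -0.34 in mature neutrophils and -0.06 and -0.28 in monocytes, with all genes at 0.01, -0.12, 0.00 and 0.02. Of the genes measured, 1, 0, 0 and 0 were more negative than Ifi27l2a in these 4 comparisons. The most negative ratios of the list in monocytes were those of Ifi209 at steady state (158 to 111 CPM, log2 ratio -0.51) and Slfn5 after stroke (33.2 to 18.4 CPM, -0.85), against -0.58 and -0.96 for Ifi27l2a. In some other marrow comparisons it lay within the list: 4 of 16 genes were more negative in plasmacytoid cells at steady state. The counts were 3 of 24 and 2 of 20 in conventional dendritic cells at steady state and after stroke, and 4 of 20 in T cells after stroke. In others no measured gene was more negative: 0 of 20 and 0 of 18 in stem and progenitor cells at steady state and after stroke. Azurophil progenitors had 0 of 12 and 0 of 8 in that order. At steady state the count was 0 of 13 in erythroid cells and 0 of 29 in T cells.

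The genes most like Ifi27l2a in level were sought over 49 sums of at least 50 cells, 1 for each lineage and library, by the Pearson correlation of log2(CPM + 10) among 6080 genes. The 10 closest were Slc43a2 (r = 0.88), Psap, Gngt2 and Samhd1 (0.87 each), Slfn5, Plekhm3 and Hps3 (0.86 each) and Themis2, Ptpn6 and Sh2b3 (0.85 each). Psap encodes the precursor of lysosomal saposins, Samhd1 a dNTP hydrolase that restricts retroviruses, and Ptpn6 the phosphatase SHP-1. Each of the 10 peaked in classical or non-classical monocytes of blood. The sums share libraries, so these values are a description. Ifi204 stood at rank 41 (0.78), Isg15 at rank 111 (0.72) and Ifi27 at rank 4833 (-0.32).

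With the mean of each lineage taken off, so that what remains is the difference between libraries, another set led. Over 48 sums it included Zfp36, which destabilises cytokine mRNAs (0.93), Ifi204 (0.92), Lst1 (0.91), Slfn5 and Isg15 (0.90 each), Irf7 and Clec7a (0.89 each), Itga4 (0.88) and Csf1r (0.87). Of the genes named, Slfn5 was on both lists. Thus by lineage Ifi27l2a tracked monocyte-rich genes, and between libraries it tracked Isg15, Ifi204 and Irf7, the factor that amplifies interferon responses.

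Ifi27, the neighbouring family member, was read in other cells. It was highest in stem and progenitor cells of young steady marrow, at 139 CPM, and lay at 17.1 to 29.7 CPM in classical monocytes of the 6 libraries, the lineage where Ifi27l2a led. In mature neutrophils it was at 100.7 and 97.3 CPM in young and aged steady marrow, 94.9 and 87.4 CPM after stroke, and 100.3 and 78.5 CPM in blood. Of 28 age pairs for Ifi27, 19 were lower in the aged library, with 8 intervals below 0 and 1 above, in post-stroke azurophil progenitors. In monocytes its log2 ratio of aged to young was -0.15, 0.01 and 0.12, each with an interval spanning 0, beside -0.58, -0.96 and -0.77 for Ifi27l2a.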

How the data were processed

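The authors deposited raw UMI counts per gene and cell barcode, as whole numbers. Per the submitters' processing notes, featureCounts 1.6.4, Subread, STAR 2.5.3a, UMI-tools and Cell Ranger 3.0.2 were used on build GRCm38/mm10, with no role given. Cells with at least 500 UMIs were kept (26893 of 28055). A cell joined the lineage with the highest marker share relative to its threshold and at least 3 markers detected; cells passing unrelated gates were left out, in place of a doublet caller. Levels needed 20 cells, and age, stroke and tissue ratios and ratios within ranges 10 UMIs over both sums with at least 1 in each. The 95% intervals cover counting error only: exact Poisson for CPM, Clopper-Pearson for shares, conditional binomial for ratios. Those for CPM and ratios treat UMIs as independent, so the spread between cells is left out. TMM factors came from edgeR 4.0.16 in R 4.3.3, and median-of-ratios factors followed DESeq2. The rest was computed in Python 3.11.15. Only the 2-fold calls and the ratio intervals were tried on simulated counts first. Those counts were Poisson draws with no spread between cells, so the trial cannot show that the intervals are wide enough for these data. The gene and all lists were chosen with earlier results of these data known, and gate thresholds and marker or interferon ranges were set after seeing the data. Named genes are the Ifi27 family, the 10 most alike, and the pathway members with the highest level per role or largest fold per comparison (up to 4). Some genes that this rule names, and the signalling genes as a group, are not reported here. Alternatives changed depth, gates, scaling, the cells kept and the measure of likeness.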

Additional observations from a re-analysis of the deposited data

How the results depend on the processing

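No paired analysis was possible because each group has 1 library and no library shares a replicate. Each age and stroke ratio of monocytes and mature neutrophils kept its sign, in 96 of 96 alternatives over 10 ratios; the causes of the moves below were not tested. For age, without the 10 richest cells the log2 ratio was -1.73 and -2.44 in mature neutrophils of steady and post-stroke marrow and -0.60 in blood monocytes; in cells below 20 UMIs of other interferon-stimulated genes per 10000 it was -0.87 in blood neutrophils and -0.84 in blood monocytes; in post-stroke monocytes it was -0.77 with the gate threshold doubled, -0.82 as a mean over cells and -0.81 thinned to 1000 UMIs, an alternative added after seeing the data. Of 196 alternatives to the 20 age ratios whose interval lay below 0, 195 were below 0. The exception was conventional dendritic cells of blood, at 0.75 without the 10 richest cells of each library, which removed 10 of 32 young cells. For stroke, TMM and median-of-ratios scaling gave -0.074 and -0.20 in young and -0.47 and -0.57 in aged mature neutrophils, and -0.10 and -0.093 in young and -0.55 and -0.45 in aged monocytes. The doubled gate gave -1.20 in young neutrophils, -0.65 in young and -0.78 in aged monocytes. Young monocytes were at -0.42 without very deep cells, -0.72 without the 10 richest (aged -1.13) and -0.41 below 20 UMIs of the other genes. Among stroke ratios whose interval excluded 0, signs turned in young conventional dendritic cells (0.0099 with median-of-ratios), young T cells (1.54 without the 10 richest) and young azurophil progenitors (0.16 and 0.32). Ratios whose interval spanned 0 turned as well, among them young stem and progenitor cells, from -0.05 to 0.27 with TMM. Of the 10 genes most alike, 6 stayed by Spearman correlation, 6 without young blood, 6 without aged blood and 1 with lineage means taken off. Counts of interferon-stimulated genes lower in aged cells, in neutrophils of steady marrow, post-stroke marrow and blood, were 11, 17 and 17 without a filter, 5 after stroke and 23 in blood at 1.5-fold, 0, 0 and 3 at 3-fold, and 0 at steady state with TMM. In monocytes they were 2 in steady and 9 in post-stroke marrow without a filter, 2 after stroke and 19 in blood at 1.5-fold, and 0 in blood at 3-fold. Shares of all genes under these rules are not given, so the counts are not read as results about the list. Depth limits NK cells, erythroid cells, basophils and megakaryocytes of marrow, whose levels outside steady-state erythroid cells rest on 5 UMIs or fewer.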
